A study of Sus scrofa and Bos taurus with 31 samples.

Results

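The hypothalamus was profiled by ATAC-seq in 2 pigs and 2 cattle, and its peak lists were set against those of 7 other tissues of the same animals. ATAC-seq uses a transposase that inserts adapters where DNA is accessible, and a peak is a stretch with more such reads than its surroundings. The pigs, P348 and P350, were castrated male Yorkshire littermates of 6 months, and the cattle, M08 and M22, were intact male Line 1 Herefords of 14 months with a common sire. The other tissues were adipose, cerebellum, cerebral cortex, liver, lung, skeletal muscle and spleen, which gave 14 other lists in pigs and 13 in cattle, where cerebellum came from M22 alone. Within a species, peaks that shared at least 1 bp were merged, and a region was called open in a tissue when the lists of both animals held a peak in it (in cattle cerebellum, its 1 list). Of 533944 merged pig regions, 68715 were open in the hypothalamus, and 398 of those had no peak in any of the 14 other lists. Of 504914 merged cattle regions, 21521 were open in the hypothalamus, and 28 had no peak in any of the 13 other lists. The 398 and 28 are called hypothalamus-only regions here. Because the lists themselves chose them, their number and fold enrichments are given as a description without a test.

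The hypothalamus is a small region at the base of the brain that joins the nervous and endocrine systems. Its nuclei hold neurons that release peptides, such as melanocortins, neuropeptide Y, vasopressin and gonadotropin-releasing hormone, and so steer feeding, water balance, growth, stress and reproduction. These neurons are specified by transcription factors such as OTP, SIM1 and NKX2-1, and they lie among astrocytes, oligodendrocytes, microglia, vessels and the tanycytes and ependymal cells that line the third ventricle. The lists come from nuclei of whole tissue, so fewer nuclei of a type and less accessibility per nucleus cannot be told apart.

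The following sequences show the 4 pig hypothalamus-only regions with the highest fold enrichment in the weaker of the 2 animals, named by the gene with the nearest transcription start site (TSS). Fold enrichment is the authors' caller's ratio of signal to local background over a peak. Sequences are the forward strand of Sscrofa11.1, cut to the central 300 bases where the region was longer. Capitals mark matches to 10 short motifs, which are homeodomain TAATTA, NKX2 CACTTGA, NFI TTGGCA, proneural bHLH CAGATGG, RFX GTTGCCAT, AP-1 TGANTCA, MEF2 CTAAAAATA, SOX AACAATGG, CTCF CAGNGGGC and NR5A TCAAGGTCA, each searched on both strands. GTDC1 is chr15:7921596-7921845, CCNYL1 is chr15:110891957-110892207, DBX2 is chr5:76028253-76028493 and TMEM64 is chr4:46367124-46367423.
GTDC1: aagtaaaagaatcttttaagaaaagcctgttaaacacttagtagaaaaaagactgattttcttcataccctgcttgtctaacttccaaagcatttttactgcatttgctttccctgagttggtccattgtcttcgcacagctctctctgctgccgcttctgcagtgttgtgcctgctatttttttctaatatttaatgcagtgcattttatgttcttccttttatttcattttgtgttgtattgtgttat
CCNYL1: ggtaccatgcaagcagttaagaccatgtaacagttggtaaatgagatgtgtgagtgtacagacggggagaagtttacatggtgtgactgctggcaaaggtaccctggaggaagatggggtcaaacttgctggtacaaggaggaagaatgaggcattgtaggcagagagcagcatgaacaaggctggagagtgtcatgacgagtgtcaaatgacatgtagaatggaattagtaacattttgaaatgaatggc
DBX2: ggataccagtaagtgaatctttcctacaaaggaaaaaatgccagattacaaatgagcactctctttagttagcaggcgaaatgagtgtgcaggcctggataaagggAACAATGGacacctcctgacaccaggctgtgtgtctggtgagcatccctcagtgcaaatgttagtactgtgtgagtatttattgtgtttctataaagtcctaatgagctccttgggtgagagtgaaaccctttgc
TMEM64: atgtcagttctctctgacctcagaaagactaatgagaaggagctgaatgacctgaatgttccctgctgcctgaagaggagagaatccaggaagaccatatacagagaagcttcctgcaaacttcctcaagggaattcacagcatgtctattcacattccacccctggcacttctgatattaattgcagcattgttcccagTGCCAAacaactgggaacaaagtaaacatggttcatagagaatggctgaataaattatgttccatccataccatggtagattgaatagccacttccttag

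The next sequences show hypothalamus-only regions whose nearest TSS belonged to a gene known for its role in the hypothalamus, and for SIM1, which had none, the nearest region open in no other tissue in both animals. They were chosen for printing after their values were seen, and they are referred to below where the genes are described. MC4R is chr1:160769457-160769756, PGR is chr9:32238480-32238779, SOX14 is chr13:78332350-78332617 and SIM1 is chr1:67320641-67320940. The SOX match in the DBX2 sequence, the NFI matches in the TMEM64, PGR and MC4R sequences and the homeodomain match in the MC4R sequence are the only matches to the 10 motifs in these 8 sequences.
MC4R: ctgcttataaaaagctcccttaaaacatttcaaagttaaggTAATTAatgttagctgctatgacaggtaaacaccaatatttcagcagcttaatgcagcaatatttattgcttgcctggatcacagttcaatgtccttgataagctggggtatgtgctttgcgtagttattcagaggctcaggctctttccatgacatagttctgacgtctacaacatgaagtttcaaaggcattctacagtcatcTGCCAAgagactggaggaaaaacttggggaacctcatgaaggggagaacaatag
PGR: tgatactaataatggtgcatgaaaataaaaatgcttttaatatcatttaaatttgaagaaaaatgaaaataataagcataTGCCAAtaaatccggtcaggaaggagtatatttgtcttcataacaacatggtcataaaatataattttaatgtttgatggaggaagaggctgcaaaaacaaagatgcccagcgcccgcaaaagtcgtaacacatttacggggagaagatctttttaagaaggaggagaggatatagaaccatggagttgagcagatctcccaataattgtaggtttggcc
SOX14: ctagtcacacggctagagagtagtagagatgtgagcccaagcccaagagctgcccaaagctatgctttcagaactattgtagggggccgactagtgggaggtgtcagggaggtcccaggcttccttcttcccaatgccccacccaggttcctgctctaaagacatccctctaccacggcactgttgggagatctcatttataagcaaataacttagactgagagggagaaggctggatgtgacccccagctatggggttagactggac
SIM1: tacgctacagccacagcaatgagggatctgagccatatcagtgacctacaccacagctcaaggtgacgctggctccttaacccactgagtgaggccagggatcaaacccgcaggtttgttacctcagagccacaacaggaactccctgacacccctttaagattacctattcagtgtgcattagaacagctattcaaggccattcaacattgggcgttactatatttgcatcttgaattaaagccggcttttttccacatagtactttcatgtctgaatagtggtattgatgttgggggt

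The cattle hypothalamus lists were short, and of the pig lists that of P348. The pig lists held 105665 peaks in P348 and 146884 in P350, against 99960 to 217308 in the 14 other lists (median 144014). The cattle lists held 63147 peaks in M08 and 37204 in M22, against 62000 to 221848 in the 13 others (median 126829). Of the lists of other tissues only adipose M08 was shorter than hypothalamus M08, and none was shorter than hypothalamus M22. The lists covered 65.4 and 91.0 Mb in pigs and 32.1 and 17.5 Mb in cattle. A peak of P348 overlapped a peak of P350 in 63.1% of cases and the reverse held for 45.3%, where the pairs of lists of other pig tissues gave 45.8% to 88.7%. In cattle 32.7% of the peaks of M08 and 55.6% of those of M22 had a partner in the other animal. The peak lists hold no read counts. The paper gives read numbers per library in its supplement, but these were not used here, and list lengths were not corrected for depth.

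Peak strength in both species, and peak position in pigs, where alone it was measured, did not differ between hypothalamus and other libraries beyond their spread. The median fold enrichment of a list was 3.30 in P348 and 3.04 in P350, a mean of 3.17 ± 0.186 (SD, n = 2) against 3.14 ± 0.388 (SD, n = 14), and the difference of 0.0325 was within the spread of libraries (exact two-sided permutation test over libraries, p = 0.9). In cattle the medians were 3.70 in M08 and 3.76 in M22, a mean of 3.73 ± 0.0466 (SD, n = 2) against 3.33 ± 0.466 (SD, n = 13), 0.402 apart (p = 0.276, exact permutation test, two-sided). TSS proximal peaks, at most 2 kb from where a protein-coding gene starts, made up 15.2% of the peaks of P348 and 11.6% of those of P350, against 7.45% to 16.7% in the other pig lists. The means of 13.4% ± 2.52 (SD, n = 2) and 12.8% ± 2.88 (SD, n = 14) differed by 0.644 percentage points (exact two-sided permutation test, p = 0.8). The smallest p these tests allow is 0.00833 in pigs and 0.00952 in cattle.

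Most regions open in the hypothalamus were open widely. In pigs 16833 regions, or 24.5%, were open in all 8 tissues, and between 7719 and 8675 regions fell into each class from 2 to 7 tissues. In cattle 11628 regions, or 54.0%, were open in all 8. At the other end, 3026 pig regions (4.40%) and 221 cattle regions (1.03%) were open in the hypothalamus and in no other tissue in both animals. These sets are larger than the hypothalamus-only ones because they allow a peak in a single animal of another tissue. The share of TSS proximal regions rose with each added tissue in pigs, from 1.12% (95% Wilson interval 0.805 to 1.57) of regions open in the hypothalamus alone to 21.7% in 7 tissues and 62.1% (61.3 to 62.8) in all 8. Strength followed more loosely, with a median fold in the weaker animal of 2.78 for 1 tissue, 2.95 to 3.26 for 2 to 7 tissues and 4.75 for 8. Merged regions also differed in median width, with 927 bp for 1 tissue, 2018 bp for 7 and 1829 bp for 8. The part of width in both trends was not tested. The intervals cover counting error only, and regions of 1 pair of animals are not replicates.

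**Figure D1:**
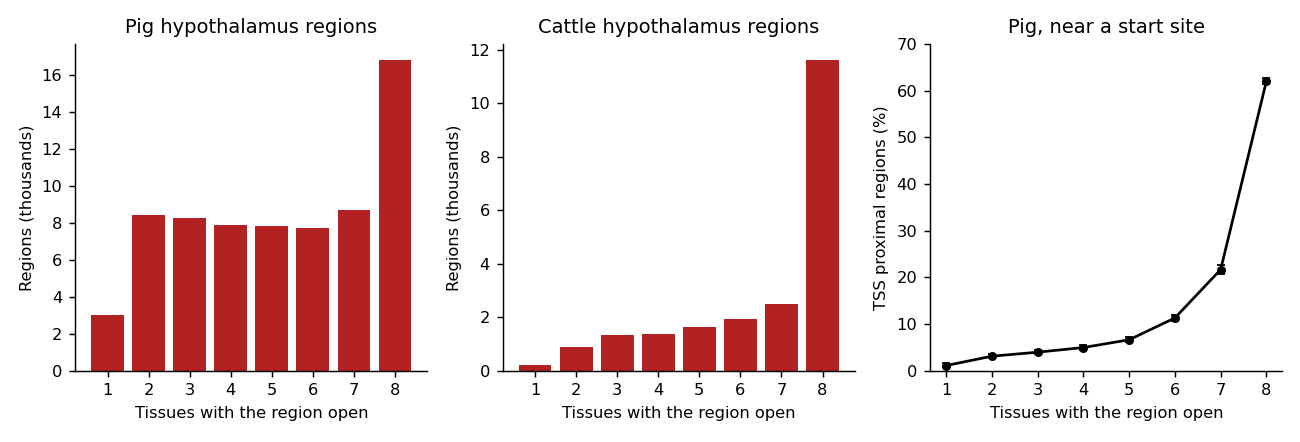
Number of hypothalamus regions (y axis, in units of 1000 regions) by the number of tissues in which the region was open (x axis) in pigs (left) and cattle (middle), and the percent of the pig regions within 2 kb of a protein-coding TSS with 95% Wilson intervals (right). The class of all 8 tissues is the tallest in both species, with 16833 and 11628 regions, and its TSS proximal share in pigs is 62.1%.

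Counted by regions open in both animals, the cerebral cortex was the tissue that shared most with the hypothalamus in pigs. Counted by single hypothalamus peaks with an overlap, averaged over lists, cerebellum (60.0%) and lung (59.3%) came before cerebral cortex (58.0%). Of the 68715 pig regions, 73.5% were also open in the cerebral cortex, 71.7% in lung, 67.9% in cerebellum, 56.1% in adipose, 55.9% in liver and 47.4% each in skeletal muscle and spleen. In cattle the single cerebellum list came first with 90.7% of the 21521 regions, before cerebral cortex with 90.3% and lung with 88.1%, and the other 4 tissues had 63.7% to 77.6%. Among the 8449 pig regions open in the hypothalamus and exactly 1 other tissue, the partner was the cerebral cortex for 3641, or 43.1% (95% Wilson interval 42.0 to 44.2), and the cerebellum for 3113, or 36.8% (35.8 to 37.9). Lung was the partner for 859 (10.2%) and each of the other 4 tissues for 107 to 332. In cattle the 887 such regions divided into 557 with the cerebral cortex (62.8%, 59.6 to 65.9), 189 with the cerebellum (21.3%) and 81 with lung, and the other 4 tissues had 4 to 31 each. A further 2014 pig and 772 cattle regions were open in all 3 brain tissues and no other. Conversely, 4089 pig and 524 cattle regions were open in the hypothalamus and at least 1 tissue outside the brain but in neither other brain tissue. Cerebellum in both species and lung in cattle had the longest lists, and the part of list length in these shares was not tested.

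By overlap in bases the cerebral cortex ranked first of the other tissues in both species. The Jaccard index is the number of bases in both of 2 lists over the number in at least 1 of them, and it was 0.272 between the 2 pig hypothalamus lists. The hypothalamus list of P348 had 0.243 with the cerebral cortex of P348 and 0.233 with that of P350. The list of P350 had 0.283 and 0.288 with these, both above its index with the other hypothalamus list. Averaged over pairs, the pig cerebral cortex reached 0.262, lung 0.227, liver 0.220, spleen 0.203, adipose 0.203, cerebellum 0.201 and skeletal muscle 0.181. In cattle the 2 hypothalamus lists had an index of 0.202, and the 4 pairs with the cerebral cortex ranged from 0.119 (both lists from M22) to 0.292 (both from M08) with a mean of 0.203. The other cattle tissues had means from 0.0945 in lung to 0.152 in liver, and the cerebellum had 0.101. By this measure the hypothalamus of P350 overlapped both cerebral cortex lists more than it did the hypothalamus of P348, and the hypothalamus of M08 overlapped its own cerebral cortex more than the hypothalamus of M22.

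The 2 other brain tissues together did not differ in overlap from the 5 tissues outside the brain by the test. Their mean index with the hypothalamus was 0.231 against 0.207 in pigs, a difference of 0.0247, and 0.152 against 0.130 in cattle, a difference of 0.0220. Over all 21 choices of 2 tissues the exact one-sided permutation test gave p = 0.238 in both species, where the smallest p possible is 0.0476. With lists of a species cut to equal length by q-value, the difference was 0.0387 in pigs (exact p = 0.143), whereas in cattle it was 0.0844 with an exact p of 0.0476, which is the lowest the design allows. With only pairs of libraries from the same animal it was 0.0272 in pigs and 0.0133 in cattle.

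**Figure D2:**
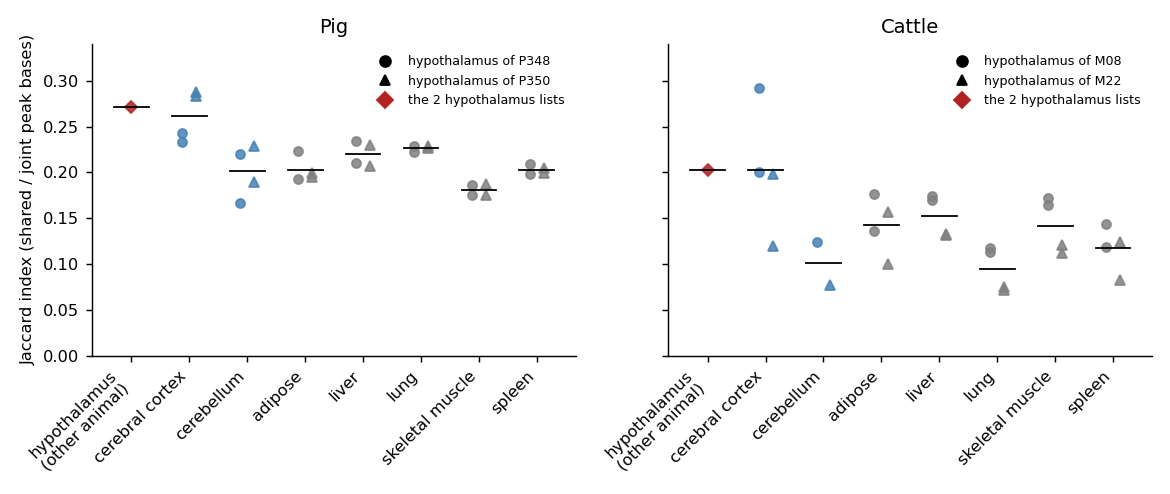
Jaccard index in bases (y axis) of each hypothalamus list with each list of the tissues on the x axis, for pigs (left) and cattle (right), where circles and triangles stand for the hypothalamus list of either animal, the diamond for the 2 hypothalamus lists and bars for means. The cerebral cortex has the highest mean of the other tissues in both species, 0.262 in pigs and 0.203 in cattle.

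The hypothalamus had the fewest regions of its own of all 8 tissues in both species. Against the 398 of the pig hypothalamus (0.579% of its regions), the number of regions with peaks in both lists of 1 tissue and in no list of another was 2009 in adipose, 3780 in spleen, 4111 in lung, 4177 in liver, 7716 in cerebral cortex, 10667 in skeletal muscle and 19024 in cerebellum. In cattle the 28 of the hypothalamus (0.130%) stood against 803 in adipose to 14556 in lung, and 58894 in the single cerebellum list. Pig spleen, with shorter lists of 105278 and 104299 peaks, had 3780 regions of its own. With lists cut to equal length the hypothalamus count rose to 847 in pigs and 342 in cattle and was still the lowest of 8. At a q-value limit of 0.0001 it was 87 in pigs, above the 34 of adipose, and 4 in cattle. The counts rest on the demand for both animals. With the list of P348 not considered, 10440 regions were left, and with that of P350 not considered 4217, the 398 among them each time. In cattle 1964 were left without M08 and 3341 without M22, the 28 among them each time.

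**Figure D3:**
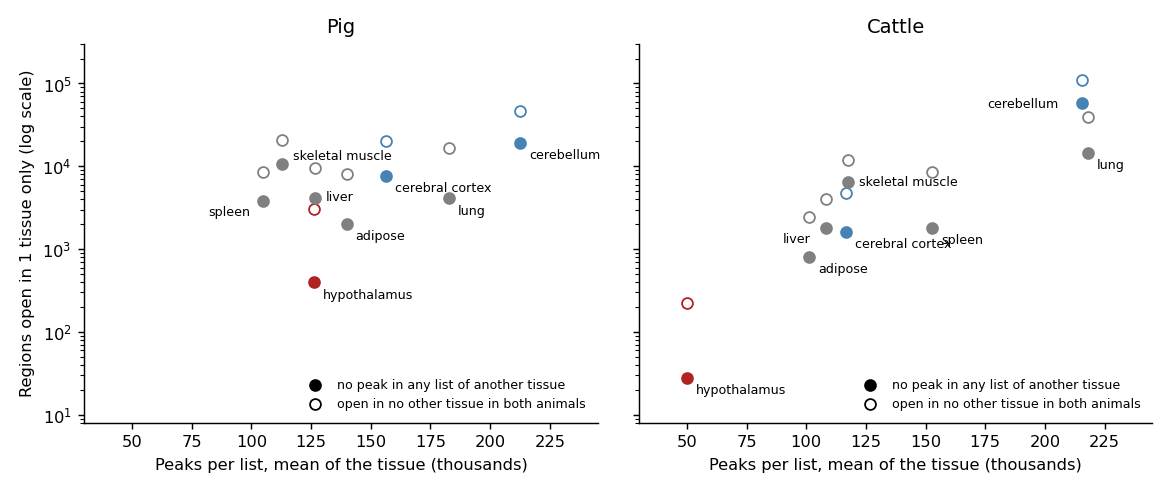
Number of regions open in 1 tissue only (y axis, log scale) against the mean number of peaks per list of that tissue (x axis, in units of 1000 peaks) in pigs (left) and cattle (right), where filled points allow no peak in any other list and open points only require that no other tissue has one in both animals; blue marks the other brain tissues. The hypothalamus (red) is the lowest filled point in both species, at 398 and 28, and in pigs it lies below tissues with lists of like length.

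The 398 pig regions lay far from genes' start sites and were weak. Only 2 were TSS proximal (0.503%, against 21.5% of all hypothalamus regions), 3 lay near the TSS of a non-coding gene, 171 (43.0%) were genic and 222 (55.8%) intergenic. The median distance to a protein-coding TSS was 115083 bp, and 215 regions (54.2%) were over 100 kb away, against 30.2% of all hypothalamus regions. Of the 174 that overlapped a protein-coding gene, 150 lay in introns, 20 touched a coding exon and 4 an exon outside the coding sequence. The median width was 636 bp, against 1648 bp over all hypothalamus regions. The median fold was 3.15 in P348 and 2.81 in P350, against 3.58 and 3.45 over all hypothalamus regions. A region takes the highest fold of its peaks, and a wider region reaches closer to a TSS. The part of width in these differences was not tested. No hypothalamus-only region exceeded a fold of 4.51 in its weaker animal, while the maximum over all regions was 27.4. They were spread over 19 chromosomes plus 6 on unplaced scaffolds, and 34 had another within 100 kb.

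The cerebral cortex-only regions, made in the same way, were stronger and nearer to genes. Their median weaker fold was 3.16, against 2.76 for the hypothalamus-only ones, 52.3% were genic and 33.9% lay over 100 kb from a TSS. The 3641 regions shared by hypothalamus and cerebral cortex only had a higher median weaker fold in the hypothalamus, 3.64, were 55.8% genic and lay at a median of 49471 bp from a TSS. Cerebellum-only regions were 70.9% intergenic at a median of 186379 bp. In genic share, TSS distance and fold the hypothalamus-only regions fell between those of the 2 other brain tissues.

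Sequence content of the 398 regions was unlike that of the widely open ones. The median GC content of the central 300 bases was 46.3% (quartiles 41.3 to 51.0), against 54.0% over all hypothalamus regions, 62.0% in those open in all 8 tissues and 45% in cerebral cortex-only regions. Repeats were more common, and 16.6% of the windows were soft-masked in the reference over at least 50% of their bases, against 8.40% of all hypothalamus regions, 3.91% of cerebral cortex-only and 33.7% of cerebellum-only regions. The RFX sequence was found in 14 windows, or 3.52% (95% Wilson interval 2.11 to 5.82), against 1.43% of all hypothalamus regions, 2.22% of cerebral cortex-only and 3.36% of cerebellum-only regions. RFX factors are known for switching on genes of cilia. The homeodomain sequence was in 6.28% (4.29 to 9.11) against 4.33% of all hypothalamus regions, and in 9.11% of cerebral cortex-only regions. The AP-1 sequence, bound by FOS and JUN dimers, was in 9.55% (7.04 to 12.8), against 18.8% of cerebral cortex-only regions and 7.85% of all hypothalamus regions. The proneural bHLH sequence was in 4.27% (2.68 to 6.73), against 11.4% of cerebral cortex-only regions. The CTCF sequence was in 8.29% (5.96 to 11.4) against 11.5% of all hypothalamus regions, and the NFI sequence in 18.3% (14.8 to 22.4) against 16.6%. The NKX2, SOX, NR5A and MEF2 sequences were in 3.02%, 1.76%, 0.503% and 0.251% of the windows. The windows sat at the center of the merged region, which need not be the center of the hypothalamus peak. Median region width was 636 bp for hypothalamus-only regions and 1648 bp for all hypothalamus regions. It was 391 bp for cerebral cortex-only and 764 bp for cerebellum-only regions. Region width, GC content and repeats differ between these sets, and their part in the motif shares was not tested.

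**Figure D4:**
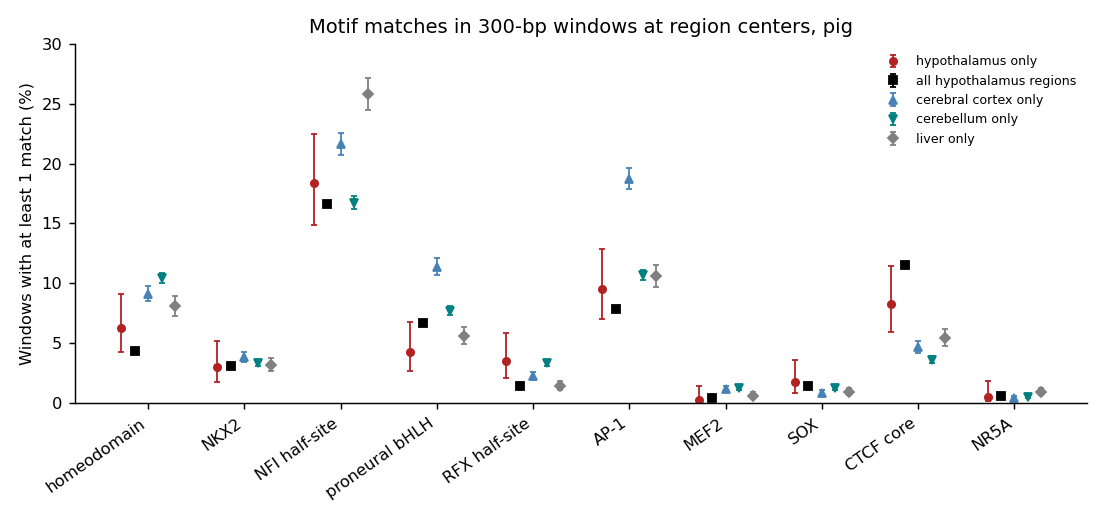
Percent of 300-bp windows at region centers with at least 1 match on either strand (y axis) for 10 motifs (x axis) in pig regions of 5 sets, each with a color and symbol of its own, with 95% Wilson intervals. Hypothalamus-only regions (red, 398 windows) lie below cerebral cortex-only regions for the AP-1 sequence, 9.55% against 18.8%, and above all hypothalamus regions for the RFX sequence, 3.52% against 1.43%.

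The strongest pig regions lay next to genes of varied function. The GTDC1 region, in an intron 170202 bp downstream of that gene's nearest TSS, had a fold of 4.51 in P348 and 5.99 in P350. The CCNYL1 region, in an intron of this cyclin Y-like gene, had 4.52 and 4.46. The DBX2 region lay 44787 bp upstream of a homeobox gene of the developing neural tube, with 5.32 and 4.41. The TMEM64 region was intergenic, 26708 bp downstream of the TSS, with 4.39 and 4.61. All 4 were picked by the fold in the weaker animal, and all were under 320 bp wide.

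The other 8 of the 12 named regions had weaker folds from 3.801 to 4.39. KLHL2, an adaptor of a ubiquitin ligase, had a region at chr8:43909201-43909447, 38190 bp upstream of its TSS. CPNE4, a calcium-dependent phospholipid-binding protein, had a region at chr13:303332-303566. A region at chr18:26313504-26313782 was nearest to the TSS of TSPAN12 but lay in an intron of KCND2, a voltage-gated potassium channel of neurons. TMTC1 had an intronic region at chr5:43927704-43927964, 3307 bp from a TSS, the closest of the 12. The homeobox gene ZFHX4 had an intergenic region at chr4:59863242-59863475, 282329 bp upstream. ARPP21, a cAMP-regulated phosphoprotein of neurons, had a region at chr13:20575823-20576069. The last 2 were next to LOC102160336, annotated as a ubiquitin-conjugating enzyme, and LOC100522678, annotated as a subunit of the mitochondrial cytochrome b-c1 complex, at chr13:10416894-10417189 and chr6:38798819-38799045. The 2 TSS proximal regions, named after their values were seen, belonged to MC4R and to RASAL2, a RAS GTPase-activating protein, the latter in an exon outside the coding sequence.

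The 398 regions were spread over many genes. They were nearest to 349 of the 19906 protein-coding genes with a peak in any library (1.75%), and 39 genes had 2 or more. FGF12, an intracellular fibroblast growth factor that tunes neuronal sodium channels, had the most, with 5 regions, all in its introns, at weaker folds of 2.62 to 3.21. UNC13C, which primes synaptic vesicles for release, had 3 in its introns. TLL1, a secreted metalloprotease, had 3, 1 of them intronic, and ARPP21 had 3 upstream. GOT2 and MRPL39 also had 3 each, but these lay 183850 to 1624635 bp away in intergenic stretches. C13H3orf67, CELF4, an RNA-binding protein of neurons, and KCTD3 had 2 each. Genes nearest to such regions were long, with a median of 118 kb against 20.3 kb over all genes tested, and a long gene offers more room for a region to be nearest.

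The genes that mark the hypothalamus were compared by peak bases in the gene and 10 kb on either side, per Mb of peaks in the library. This scales a value by the bases its list covers but does not make lists of unlike length equal. With lists cut to equal length, 28 of the genes called below were still called. A gene was called highest when both hypothalamus libraries lay above all 14 others, and 109 of 19906 genes (0.548%) were. A pair of pig libraries can be chosen in 120 ways. With libraries in random order and no ties, a given pair would thus be on top for a share of 0.00833 of genes. The share called was below this, so a call by itself does not show that a gene is particular to the hypothalamus. OTP, a homeodomain factor of neuroendocrine neurons, had 47.2 in P348 and 49.2 in P350, against 11.99 to 63.9 (median 33.6) in the other libraries, where only adipose P350 lay above both. Its mean was first of the 8 tissues. SIM1, a factor of the paraventricular nucleus, had 67.4 and 124, against 4.21 to 123 (median 63.1), so that P348 lay amid the others and P350 above all of them. POMC, the precursor of the melanocortin peptides, had 28.6 and 26.5, against 10.2 to 39.8 (median 21.8). None of the 3 markers was called highest, and the groups overlapped for each, so these genes did not set the libraries labelled hypothalamus apart from the rest. None had a hypothalamus-only region, while SIM1 had 2 regions open in no other tissue in both animals, including the printed one 25717 bp upstream of its TSS with folds of 2.58 and 2.83. A peak within 2 kb of the TSS was present in both hypothalamus lists for SIM1 and POMC and in neither for OTP, where 3 other lists had one.

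Among 20 receptor genes of the hypothalamus, MC4R and PGR had hypothalamus-only regions, against 1.75% of all genes tested. MC4R, the melanocortin receptor through which appetite is restrained, had 2. The printed one lay 1808 bp upstream of the TSS (chr1:160769008-160770205) with a fold of 3.19 in P348 against 2.77 in P350, and the other was at chr1:160695561-160696073 with 3.66 and 2.56. Both also lay in an intron of LOC110261667, annotated as a glutamate decarboxylase 1-like gene, and the 2 genes cannot be told apart as owners. Peak bases at MC4R were 7.89 and 26.1 per Mb, against 0 to 9.23 in the other libraries, so P350 lay above all and P348 below both cerebellum libraries. PGR, the progesterone receptor, had a region at chr9:32238144-32239116, 108923 bp upstream, with folds of 3.57 and 4.28. The other receptors had none, and no receptor was called highest, although MC4R was with a window of 50 kb. With regions open in no other tissue in both animals, 6 of the 20 had at least 1 (GHR 3, ESR1 and MC4R 2 each, and GLP1R, MC3R and PGR 1 each), against 9.38% of all genes tested. The cell type lists had such regions too, at 6 of 10 cerebral cortex genes, 4 of 7 astrocyte genes, 2 of 5 thalamic genes, 3 of 10 cerebellar genes and 2 of 8 oligodendrocyte genes, so this was not particular to the hypothalamic lists. Receptor promoters were open almost throughout, with a peak at 20 of 20 in P348 and 18 in P350, against 12 to 20 in the other libraries.

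Among 28 transcription factor genes, only SOX14 was nearest to a hypothalamus-only region (1.75% of all genes tested). Only NKX2-2 was called highest (0.548% of all). The SOX14 region lay 288201 bp upstream and had a fold of 3.37 in P348 and of 3.22 in P350. NKX2-2, a factor of the ventral neural tube and of oligodendrocyte precursors, had 93.3 and 55.3 peak bases per Mb against 0 to 48.2 (median 28.6), and the 2 cerebral cortex libraries, at 46.8 and 48.2, came next. POU3F2, a neuronal POU factor that is expressed in the neuroendocrine hypothalamus, had 118 and 78.3 against 0 to 82.8. It lay highest in P348 and was exceeded in P350 by the cerebral cortex of P348. The mean of the hypothalamus was first of 8 tissues for 6 of the 28 (POU3F2, FOXB1, OTP, SIX3, SOX14 and NKX2-2), where 4.64% of all genes tested had it first. Regions open in no other tissue in both animals were nearest to 8 of the 28, against 9.38% of all genes tested, among them ISL1, POU3F2, TBX3 and SIM1 with 2 each and SOX14, FOXB1 and FEZF1 with 1 each. A POU3F2 region 304007 bp upstream had folds of 5.58 and 8.66, the highest of them. Promoter peaks were no mark of the tissue, at 23 and 22 of the 28 genes in the hypothalamus libraries against 13 to 26 (median 22) elsewhere.

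Of 26 neuropeptide and hormone genes, NPY and PMCH were called highest (0.548% of all genes tested) and none was nearest to a hypothalamus-only region (1.75% of all). NPY, neuropeptide Y, had 36.0 in P348 and 25.2 in P350, against 0 to 24.8 in the other libraries, of which spleen P350 was the highest, so that the groups were barely apart. PMCH, the precursor of melanin-concentrating hormone, had 16.9 and 14.5, against 0 to 13.1, and 8 of the 14 other libraries had no peak base there. TAC1 and PENK, tachykinin and enkephalin precursors, also had their highest mean in the hypothalamus, at 52.1 and 30.3 and at 70.5 and 46.7, but P350 lay among the other libraries for both. Regions open in no other tissue in both animals were nearest to 5 of the 26, against 9.38% of all genes tested (NPY 2, and CARTPT, TAC1, SST and NTS 1 each). The CARTPT region, 19163 bp upstream, had folds of 4.25 and 4.15.

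AVP, the vasopressin gene, went the opposite way, and it was singled out after its values were seen. No peak base lay within 10 kb of AVP in either hypothalamus library, while 13 of the 14 others had a peak within 2 kb of its TSS, with 0 to 31.4 peak bases per Mb (median 21.8). OXT, the neighboring oxytocin gene, had 3.06 and 8.58 against 0 to 31.3. GNRH1, the gene of gonadotropin-releasing hormone, had no peak base in either library, and its median elsewhere was 0. Overall 17 of the 26 had a promoter peak in each hypothalamus library, against 13 to 22 (median 18) in the others. Not 1 gene of the genome had a promoter peak in both hypothalamus lists and in no other list, where 12 to 135 genes did for each other tissue. Conversely, 4 genes (ACE, NLRC3, SLC27A3 and TERB2) lacked one in both hypothalamus lists only.

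Lists of marker genes for other cell types were compared in the same way, and the part of each cell type in the results above was not tested. Of 8 oligodendrocyte genes, 4 had their highest mean in the hypothalamus, among them SOX10, OLIG1 and NKX6-2, where 4.64% of all genes tested had it first. SOX10, the factor that defines the lineage, was the only 1 of the 8 called highest, against 0.548% of all genes tested. It had 47.6 in P348 and 35.2 in P350 against 0 to 32.7. The summed value of the list was 364 and 279, against 52.5 to 334 in the other libraries, where cerebral cortex P350 was the highest. Tanycyte and ependymal genes summed to 294 and 394 against 119 to 341, and the highest of the others was cerebellum P348. Of the 10 genes of the cerebellar list, only ZIC2 was called highest (0.548% of all genes tested), at 56.9 and 53.5 against 3.91 to 46.5. ZIC factors also act in the ventral forebrain. The sums of the 10 pituitary genes were 84.6 and 75.3 against 63.2 to 150, and POU1F1 and TSHB had no peak base in either hypothalamus library. Choroid plexus genes summed to 100.1 and 98.6 against 94.5 to 265, thalamic genes to 872 and 853 against 462 to 1631, and cerebral cortex genes to 514 and 394 against 273 to 569. Microglia genes, at 145 and 164, lay below the median of 202, and endothelial genes, at 314 and 229 against 136 to 493, and astrocyte genes, at 350 and 396 against 285 to 542, lay within the others. Transmitter genes summed to 359 and 238 against 222 to 409, and none was called.

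Of the 3641 regions shared by hypothalamus and cerebral cortex only, 9 were nearest to astrocyte genes and 9 to oligodendrocyte genes. The nearest genes of all these regions were 12.9% of all genes tested, and they included 6 of 7 astrocyte genes, with 4 regions at SOX9 and 1 each at AQP4, ALDH1L1, SLC1A2, SLC1A3 and GJA1. They also included 5 of 8 oligodendrocyte genes, among them SOX10 and NKX6-2 with 2 regions each and MOG and OLIG1 with 1 each. Also among them were 2 of 5 endothelial, 2 of 5 thalamic and 2 of 6 tanycyte and ependymal genes. The same held for 3 of 10 cerebral cortex genes and 7 of 28 hypothalamic transcription factors, so shares above 12.9% were not particular to glial lists. Neuropeptide and hormone genes had 4 of 26, receptors 2 of 20 and cerebellar genes 1 of 10. No microglia, pituitary, choroid plexus or transmitter gene was among them. SOX9, which had 4 regions there, had 22.4 and 31.1 peak bases per Mb in the hypothalamus against 0 to 28.9 elsewhere.

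Over the whole genome few genes were called highest in the hypothalamus, 109 against 84 in lung, 232 in liver, 252 in cerebral cortex and 502 to 3519 in the other 4 tissues. As stated above, 109 is fewer than a random order of libraries without ties would give. The 15 genes with the widest gap between the lower hypothalamus library and the highest other library were mostly long. ZNF385D, a zinc finger gene, had 392 in P348 and 514 in P350, a mean of 453 ± 86.5 (SD, n = 2), against at most 268 elsewhere, and it was nearest to 14 regions open in no other tissue in both animals. RELN, which encodes the guidance protein reelin, had 307 and 344, against 55.5 to 238. GALNT13, a neuronal glycosyltransferase, had 190 and 214, against 10.2 to 128. GABRG3, a subunit of the GABA-A receptor, had 419 and 390, against 16.7 to 339. UNC13C, already named for its 3 regions, had 110 and 294, against 0 to 88.8. All of them were highest in both animals by the rule that picked them, and the cerebral cortex or cerebellum held the next library for each.

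The next library was not always from the brain. RUNDC3B had 160 and 117 against 22.1 to 61.4, with adipose P348 next, and LOC100522267, annotated as a multidrug resistance protein 1-like gene, overlaps it and shares its peaks. LOC110261667, which spans MC4R, had 103 and 124 against 3.04 to 65.7, with cerebellum P348 next. KCNK2, a background potassium channel, had 189 and 162 against 0 to 139, with cerebral cortex P350 next. For FSTL5 and ZFPM2 lung P348 came next. These genes, LOC110255605, ZNF385B and NTNG1, a netrin of axons, were also among the 15. DBX2, whose upstream region is printed above, was also among the 109, at 32.7 and 33.5 against 10.9 to 30.7. The called genes had a median length of 30.9 kb against 20.3 kb over all genes tested. Of the 109, 49 were nearest to a region open in no other tissue in both animals, against 9.38% of all genes tested, but the same hypothalamus peaks enter both counts.

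These gene calls depended on the processing and on the demand for both animals. Of the 109 genes, 32 were still called with a window of 50 kb, 59 with 2 kb, 28 with lists of equal length, 47 by number of peaks and 13 at a q-value limit of 0.0001. When each hypothalamus library was compared only with the 7 other libraries of its own animal, 177 genes were highest in both animals, POU3F2 among them. A single library gave 451 genes without P348 and 1009 without P350. The 15 genes with the widest gap, which were picked for it, were all still highest with windows of 50 kb or 2 kb, with lists of equal length 10 of them, and at a q-value limit of 0.0001 only 1. Of the called list genes, NPY and PMCH were not called at a q-value limit of 0.0001, with equal lists or with either other window. NKX2-2 was still called at that limit and with equal lists but with neither other window, and SIX3, a homeobox gene of the anterior forebrain, was called with all of these except the 50 kb window. SOX10 was still called at both windows and at that limit but not with equal lists, and ZIC2 was called with none of these.

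**Figure D5:**
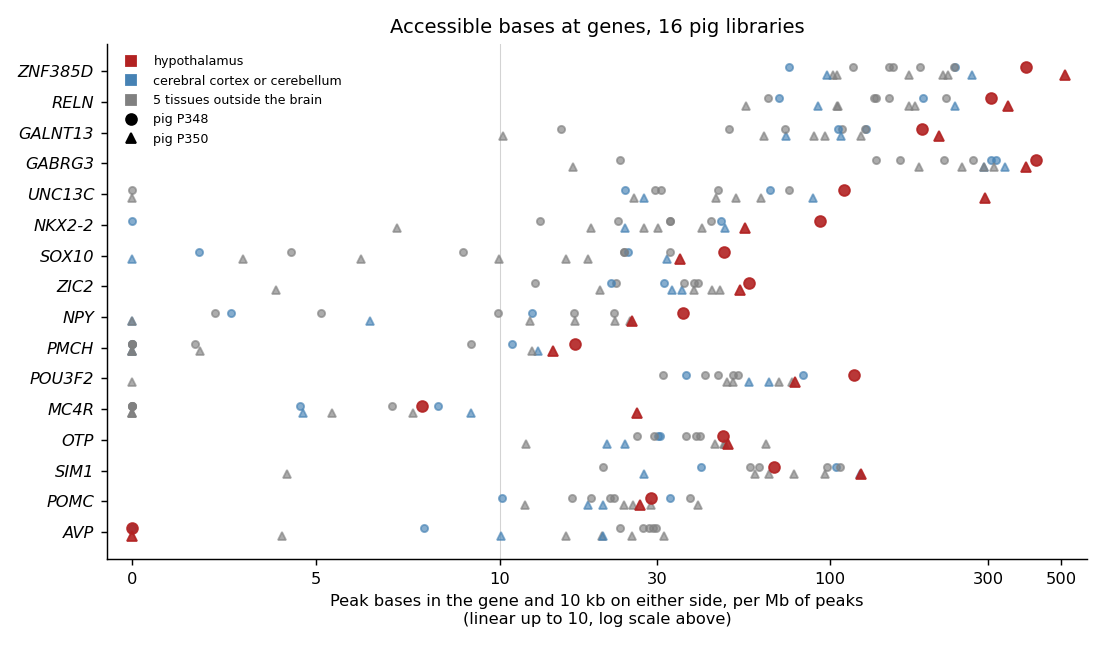
Peak bases in the gene and 10 kb on either side per Mb of peaks (x axis, linear up to 10 and log scale above) for 16 genes (y axis) in the 16 pig libraries, where circles are P348, triangles P350, blue the other brain tissues and gray the tissues outside the brain. Both hypothalamus points (red) lie right of all others from ZNF385D down to PMCH, overlap the others for POU3F2, MC4R, OTP, SIM1 and POMC, and stand at 0 for AVP.

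The 28 cattle regions were described by position alone, since genes and sequence of cattle were not analysed here. They lay on 18 chromosomes with none on X, had a median width of 518 bp and a median fold of 3.32 in M08 and 3.72 in M22. One stood out on ARS-UCD1.2, a region of 220 bp at chr10:34681772-34681991 with a fold of 12.3 in M08 and 29.96 in M22. The other 27 had weaker folds from 2.81 to 4.25. The next 5 were chr4:9251591-9251797 with 4.25 and 4.61, chr15:77234879-77235186 with 4.27 and 4.13, chr24:52271992-52272230 with 3.98 and 4.06, chr4:41833514-41834065 with 3.51 and 4.31 and chr8:49771090-49771372 with 3.50 and 3.77. The value of 29.96 is the highest fold in the list of M22, and no other cattle library had a peak there. Of the 111 cattle regions with a peak in exactly 1 other list, 70 had it in the cerebral cortex, 64 of them in M22. In pigs the 906 such regions had it in the cerebellum for 347 (38.3%), the cerebral cortex for 287 (31.7%) and lung for 148 (16.3%).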

How the data were processed

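Nuclei of 8 tissues were assayed by ATAC-seq, and 31 MACS2 broad peak lists were used, 15 from cattle and 16 from pigs, 1 per library. According to the methods and the submitters' processing notes, reads were trimmed (Trim Galore 0.4.5), aligned (BWA 0.7.17), filtered at a mapping quality of 30 (SAMtools 1.10) and cleared of duplicates (Picard 2.18.17), steps the methods state for ChIP-seq reads. Whether reads were shifted for the transposase is not given in the sources used here. The calling of peaks was done at q 0.05 on ARS-UCD1.2 and Sscrofa11.1. The lists have 9 columns. The deposited fold is the ratio of signal to background, the deposited score is 10 times the −log10 q-value, and the deposited −log10 p-value was not used. The deposited −log10 q-value served only for filtering. The share of peaks with a q-value above 0.05 was 6.97% and 14.8% in the pig and 7.82% and 17.1% in the cattle hypothalamus lists, so the lists run past the stated limit.

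Groups came from the sample labels. The name of an animal marks the same animal in every tissue, so the samples are paired. Libraries of the same animal overlapped no more than others, with a mean Jaccard index of the hypothalamus with other tissues of 0.212 within and 0.216 between pigs and 0.136 and 0.141 in cattle. With 2 animals a species, p-values measure the spread between these libraries. Merging, overlap, permutation tests and counts per gene were run in Python 3.11.15 with NumPy 2.4.6, pandas 2.3.3 and SciPy 1.17.1, tested on simulated lists, and sequences were indexed with SAMtools 1.23.1. Pig genes were the 20674 protein-coding genes of NCBI annotation release 106 of Sscrofa11.1, whereas the study used an Ensembl annotation, and all 155 genes of the 14 lists were matched (FOLR1 has 2 entries).

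The regions, gene lists and motifs were chosen with earlier results of these data known. Named genes were OTP, SIM1 and POMC, list members called highest, hypothalamic list members nearest to a hypothalamus-only region, the 15 genes with the widest gap, the 10 with the most hypothalamus-only regions, and the genes of the 12 pig regions with the highest weaker fold. The 6 such cattle regions are named by position. Some genes that this rule names are not reported here. Alternatives were q-value limits of 0.01 and 0.0001, lists of equal length, merging within 500 bp, placed chromosomes, other definitions of open, a 500 bp limit for TSS proximal peaks, windows of 50 kb and 2 kb around genes, counts of peaks, a block for the animal, and leaving out a hypothalamus library.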

Additional observations from a re-analysis of the deposited data

Results flagged for a closer look

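The share of peaks on chromosome X moved in opposite directions in the 2 species. In both cattle the hypothalamus list had a larger share on X than the mean of the other tissues of that animal, and in both pigs a smaller one, so that the mean difference was 0.269 percentage points higher in cattle than in pigs. The shares were 1.63% and 1.51% in the pig and 1.80% and 1.79% in the cattle hypothalamus lists. All of them lay within the range of the other lists, which was 1.17% to 2.40% in pigs and 1.07% to 2.13% in cattle. The difference between the species was not tested.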

How the results depend on the processing

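The numbers of hypothalamus-only regions moved with almost every definition. In pigs they were 3026 with a peak in 1 animal of another tissue allowed, 252 at a q-value limit of 0.01, 87 at 0.0001, 847 with lists of equal length, 14259 with a peak in either hypothalamus list, and 4217 to 10440 with 1 hypothalamus library left out. In cattle the same settings gave 221, 14, 4, 342, 5277, and 1964 to 3341. Placed chromosomes and merging within 500 bp left 392 and 370 in pigs and 28 each in cattle. The difference in overlap between brain and other tissues stayed positive under every alternative run, from 0.00737 to 0.0420 in pigs and 0.00719 to 0.0367 in cattle with 1 hypothalamus library left out, and passed the threshold only in cattle with equal lists (0.0844). The difference in median fold turned to -0.0792 in pigs and -1.16 in cattle with equal lists and ran from -0.0990 to 0.164 in pigs and 0.369 to 0.435 in cattle with 1 library left out. The difference in TSS proximal share was -0.243 with equal lists and -1.14 to 2.43 with 1 library left out. At a q-value limit of 0.0001 the pig difference was 0.528 in median fold (exact permutation p = 0.0667) and 6.30 percentage points in TSS proximal share (exact p = 0.408). None of these differences in fold or TSS share passed the threshold. The causes of these changes were not tested. The number of genes highest in the hypothalamus was 313 at a q-value limit of 0.0001, 182 by number of peaks and 451 to 1009 with 1 library left out. With the animal as a block it was 177. All 109 genes of the main setting are among these by the rule itself, since each hypothalamus library then faces fewer others. Within the hypothalamic lists POU3F2 was the only gene added. The block left every tested difference short of the threshold, with p = 0.844 and 0.286 for the median fold in pigs and cattle, 0.828 for the TSS proximal share and 0.190 and 0.381 for the overlap (exact permutation tests). Depth was not taken into account, so the precision of single peaks is unknown.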
